A study of Mus musculus with 18 samples.

Results

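C-type lectins are proteins with a C-type lectin-like domain, which in many of them binds sugars. Myeloid cells carry a set of them as surface receptors for microbes and dying cells. Open chromatin is described here around 9 genes of such receptors: Mrc1, Mgl2, Clec10a, Clec7a, Clec4n, Clec4d, Clec4e, Clec5a and Clec12a. They were chosen by name, with earlier results of these data known. The choice was made out of 22020 mouse genes of GENCODE release M21 that were annotated as protein-coding (21938) or as a polymorphic pseudogene (82). The second class was included because Clec7a is listed there. For each gene, all entries were collected that overlapped the gene body or lay within 50 kb of its most upstream start site. This gave 97 of 82391 reference peaks, 67 of 59617 extended regions and 98 of 84660 summits.

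The entries come from ATAC-seq, in which the Tn5 transposase inserts adapters into accessible DNA, of wild type mouse bone marrow-derived macrophages (BMDM). According to the study's methods, the bone marrow came from male C57/BL6 mice. All cells received the vehicle DMSO for 1 h and were then left untreated, or exposed to 10 ng/mL of LPS or of IL-4, with collection after 30 min, 1 h, 2 h or 4 h. The 9 groups held 2 libraries each, and nothing states that these came from separate animals. The 3 deposited lists had been pooled over all 18 libraries, and no column or name in them gives a stimulus, a time or a replicate. The values below therefore describe where chromatin was called open in at least part of these BMDM, and no comparison between stimuli, no replicate error and no depth per library could be had. The summit score is the only measured quantity, its scale is not stated in the sources used here, and it ran from 102 to 2781 with a median of 737 over all summits.

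The 9 proteins play different roles. Mrc1 encodes the mannose receptor CD206, an endocytic receptor and a classical label of macrophages activated by IL-4, while Mgl2 (CD301b) and Clec10a (CD301a) encode endocytic lectins that bind galactose and N-acetylgalactosamine. Clec7a encodes Dectin-1, which senses beta-glucan of fungi through its own tyrosine motif and the kinase Syk. Clec4n (Dectin-2), Clec4d (MCL) and Clec4e (Mincle) encode receptors for fungal and mycobacterial glycans and glycolipids that signal through the Fc receptor gamma chain, Clec5a (MDL-1) signals through DAP12, and Clec12a encodes an inhibitory receptor with an ITIM. Clec4n, Clec4d and Clec4e lie side by side on chromosome 6, and Mgl2 and Clec10a are neighbours on chromosome 11.

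All 9 genes had a reference peak within 1000 bp of an annotated start site, compared with 56.4% of all 22020 genes. When only the most upstream start site was used, 7 of the 9 had one, compared with 51.9% of all genes. The exceptions were Clec10a and Clec12a. The most upstream start site of Clec10a is at chr11:70156197, and its peak was found 10417 bp further down, at chr11:70166430-70166621, next to an internal start site at 70166623. The most upstream start site of Clec12a is at chr6:129342691, and its best start site peak, at chr6:129349936-129350397, covered an internal start site at 129349964. In the RefSeq promoter table (GRCm38.p6), which had entries for 7 of the 9 genes, the start site of Clec12a is the internal position 129350244, which is 126 bp downstream of the summit of this peak. For the other 6 genes with an entry, the RefSeq and GENCODE start sites differed by at most 28 bp. Below, the start site peak of a gene is the one nearest to its most upstream start site or, for Clec10a and Clec12a, the best scored one at another start site.

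The bases around the summits of these start site peaks are shown because the peaks stood out by their sequence. Each line gives up to 50 bp on both sides of the summit in the direction of transcription, from the mm10 genome, without untranslated exons. The Clec4d line therefore ends before its summit at 123262115, which lay in an untranslated exon. Capitals mark the letters of any of 12 motifs defined further below.
Mrc1, chr2:14229247-14229347, plus strand: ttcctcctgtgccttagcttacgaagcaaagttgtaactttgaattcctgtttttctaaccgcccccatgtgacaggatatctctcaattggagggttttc
Mgl2, chr11:70130056-70130156, plus strand: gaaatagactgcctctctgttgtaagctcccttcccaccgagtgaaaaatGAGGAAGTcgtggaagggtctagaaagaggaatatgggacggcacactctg
Clec10a, chr11:70166564-70166622, plus strand: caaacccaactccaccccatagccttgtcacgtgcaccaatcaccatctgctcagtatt
Clec7a, chr6:129472827-129472927, minus strand: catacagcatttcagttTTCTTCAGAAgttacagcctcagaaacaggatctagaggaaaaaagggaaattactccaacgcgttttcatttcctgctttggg
Clec4n, chr6:123229767-123229842, plus strand: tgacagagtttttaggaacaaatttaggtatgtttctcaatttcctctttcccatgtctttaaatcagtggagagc
Clec4d, chr6:123262065-123262110, plus strand: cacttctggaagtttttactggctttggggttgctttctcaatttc
Clec4e, chr6:123289880-123289980, minus strand: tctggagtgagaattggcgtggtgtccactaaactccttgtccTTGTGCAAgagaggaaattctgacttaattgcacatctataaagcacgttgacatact
Clec5a, chr6:40585826-40585926, minus strand: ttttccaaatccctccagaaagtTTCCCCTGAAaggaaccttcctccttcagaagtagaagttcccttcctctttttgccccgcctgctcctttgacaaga
The Mgl2 line holds a PU.1/ETS motif, the Clec7a and Clec5a lines hold a STAT6 motif, and the Clec4e line holds a C/EBP motif. The start site peak of Clec12a is not shown because it lay in an untranslated exon.

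The start site peaks of all 9 genes were poor in CpG dinucleotides. In the 300 bp around the summit, the ratio of observed to expected CpG was 0 for Clec4d, 0.156 for Mrc1, 0.179 for Clec10a, 0.192 for Clec5a, 0.247 for Clec4e, 0.257 for Clec4n, 0.26 for Clec12a, 0.291 for Mgl2 and 0.392 for Clec7a. The median over these genes was 0.247, compared with 0.799 over the 12415 genes with a start site peak. For Clec7a, the highest of them, 13.1% of those genes had a ratio as low or lower. The median GC content was 41.3% for the lectin genes, from 35.3% for Clec4d to 52.0% for Mrc1, and 63.7% over all genes with a start site peak.

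**Figure D1:**
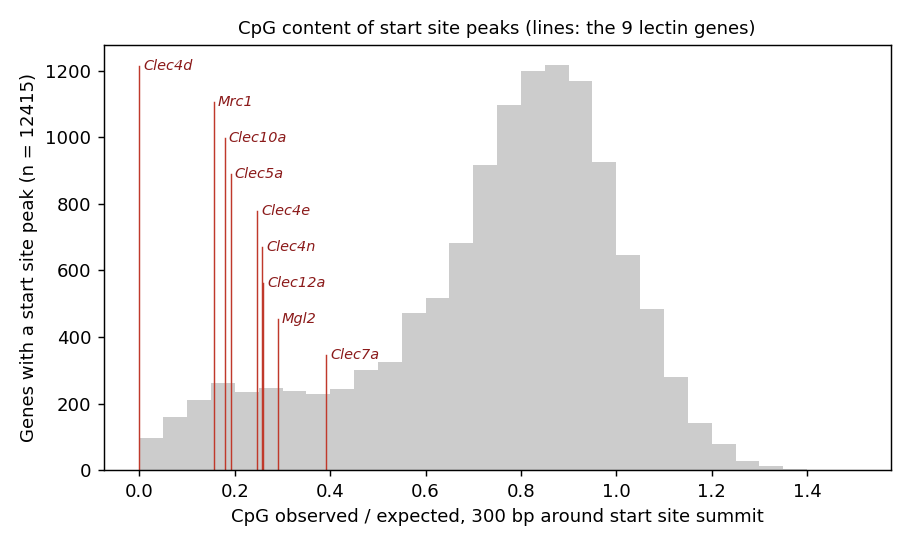
Histogram of the ratio of observed to expected CpG (x axis) in the 300 bp around the start site summit, as numbers of genes (y axis, n = 12415). Red lines mark the 9 lectin genes, whose line heights carry no value. All 9 lay between 0 and 0.392, left of the main body of the distribution with its median of 0.799.

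The start site peaks of the lectin genes scored below the median of all genes with such a peak, except that of Clec12a. The score was 563 for Clec4n, 634 for Clec4d, 1013 for Mgl2, 1048 for Mrc1, 1129 for Clec4e, 1164 for Clec5a, 1260 for Clec7a, 1296 for Clec10a and 1581 for Clec12a. The place of Clec4d and of Clec12a in this order depended on which start site peak was used. For Clec12a, a second start site peak at chr6:129349581-129349792, which lies nearer to the most upstream start site, scored 421, which would be the lowest value in place of the highest. A peak at an internal start site of Clec4d scored 1141, and with the best scored peak at any start site, as used for Clec10a and Clec12a, its value lay in the middle of the order. The median was then 1141 for the lectin genes and 1456 over all genes. With the first rule, the median of 1129 compares with 1369 over all genes with a start site peak. Among the 1626 genes with a start site peak whose CpG ratio was at or below that of Clec7a, the median was 878. At the low end, 92.6% of all genes with a start site peak scored at least as high as Clec4n, and at the high end 37.2% scored at least as high as Clec12a. None of these scores carries an error, so differences between neighbours in this order could not be tested.

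For 8 of the 9 genes, the best summit more than 1000 bp from any start site (below, distal) scored above the start site peak. This compares with 44.1% of the 11663 genes with both kinds of summit, and with 73.5% of the 1545 such genes with a CpG ratio at or below that of Clec7a. The best distal score was 1786 for Clec12a, 1594 for Mrc1 and for Mgl2, 1581 for Clec5a, 1556 for Clec7a, 1568 for Clec4n, Clec4d and Clec4e, and 1176 for Clec10a. The median of 1568 compares with 1212 over all genes with a distal summit. Clec10a was the exception, since its start site peak exceeded its best distal summit by 120. The difference was largest for Clec4n, whose start site peak lay 1005 below the distal summit. For Clec4d it was 934, or 427 with the internal start site peak, which is less than for Mgl2 (581), Mrc1 (546) and Clec4e (439). With the best scored peak at any start site, the distal summit was again higher for 8 of the 9 genes, compared with 39.2% of the 11663 genes.

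These values do not assign a distal peak to a gene. The 9 genes had 7 distinct best distal peaks, since Clec4n, Clec4d and Clec4e shared one. The best distal peaks of Mgl2 and Clec7a were nearer to the start sites of Asgr2 and Clec1a, and that of Clec5a was nearer to Olfr460. When a distal summit was counted only if the nearest coding start site was that of the gene itself, it exceeded the start site peak for 4 of the 9 genes, compared with 26.8% of the 11663 genes. These 4 were Mrc1, Clec4d, Clec4n and Clec12a.

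**Figure D2:**
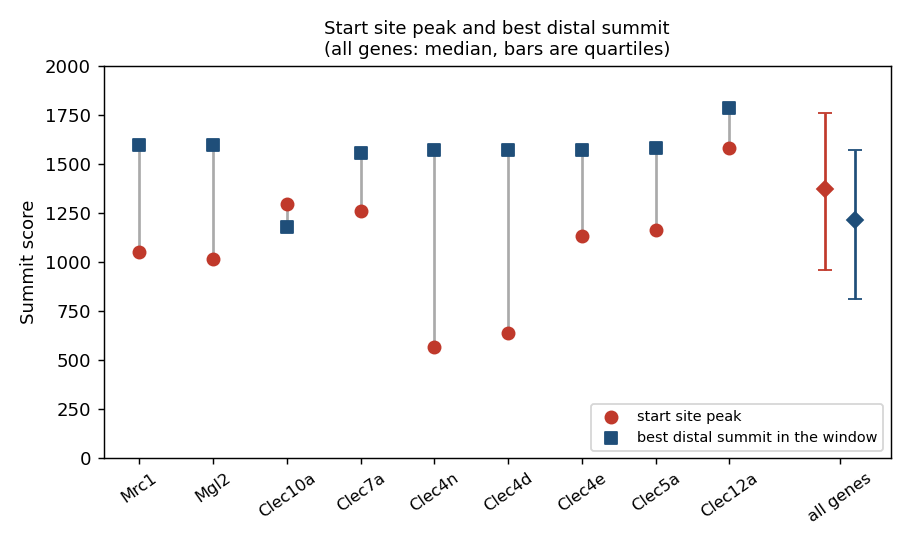
Summit score (y axis) of the start site peak (red circles) and of the best distal summit in the window (blue squares) for each lectin gene, without replicate error because the list is pooled. Diamonds and bars give the median and quartiles over all genes with such a summit. The distal value is above the start site value in 8 of 9 genes, with Clec10a as the exception.

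The lectin genes had between 7 and 24 reference peaks in their windows, with a median of 14, compared with a median of 6 over all genes. There were 24 for Mrc1, 20 for Clec4d, 18 for Clec4e, 16 for Clec7a, 14 for Clec4n, 13 for Clec12a, 11 for Clec10a, 9 for Clec5a and 7 for Mgl2. Only 3.97% of all genes had at least as many as Mrc1, whereas 47.8% had at least as many as Mgl2. Since Mrc1 is a long gene with a window of 153 kb, its 24 peaks amount to 15.7 per 100 kb, compared with a median of 5.25 per 100 kb over all genes. By this density, 11.5% of all genes were at or above Mrc1, and Clec4d (20.0), Clec4e (18.0) and Clec7a (16.0) ranked above it. Of the 97 distinct peaks, 72 lay in the window of 1 gene, 15 in the windows of 2 and 10 in the windows of 3. The nearest coding start site was that of one of the 9 genes for 65 peaks. Judged by the best summit, which here had to lie within 1000 bp, a total of 20 peaks (20.6%) lay at a start site of any gene, compared with 28.4% of all reference peaks. By the same rule, 14 of these 20 lay at a start site of one of the lectin genes, and of the remaining 77 distal peaks 39 were intronic and 30 intergenic.

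**Figure D3:**
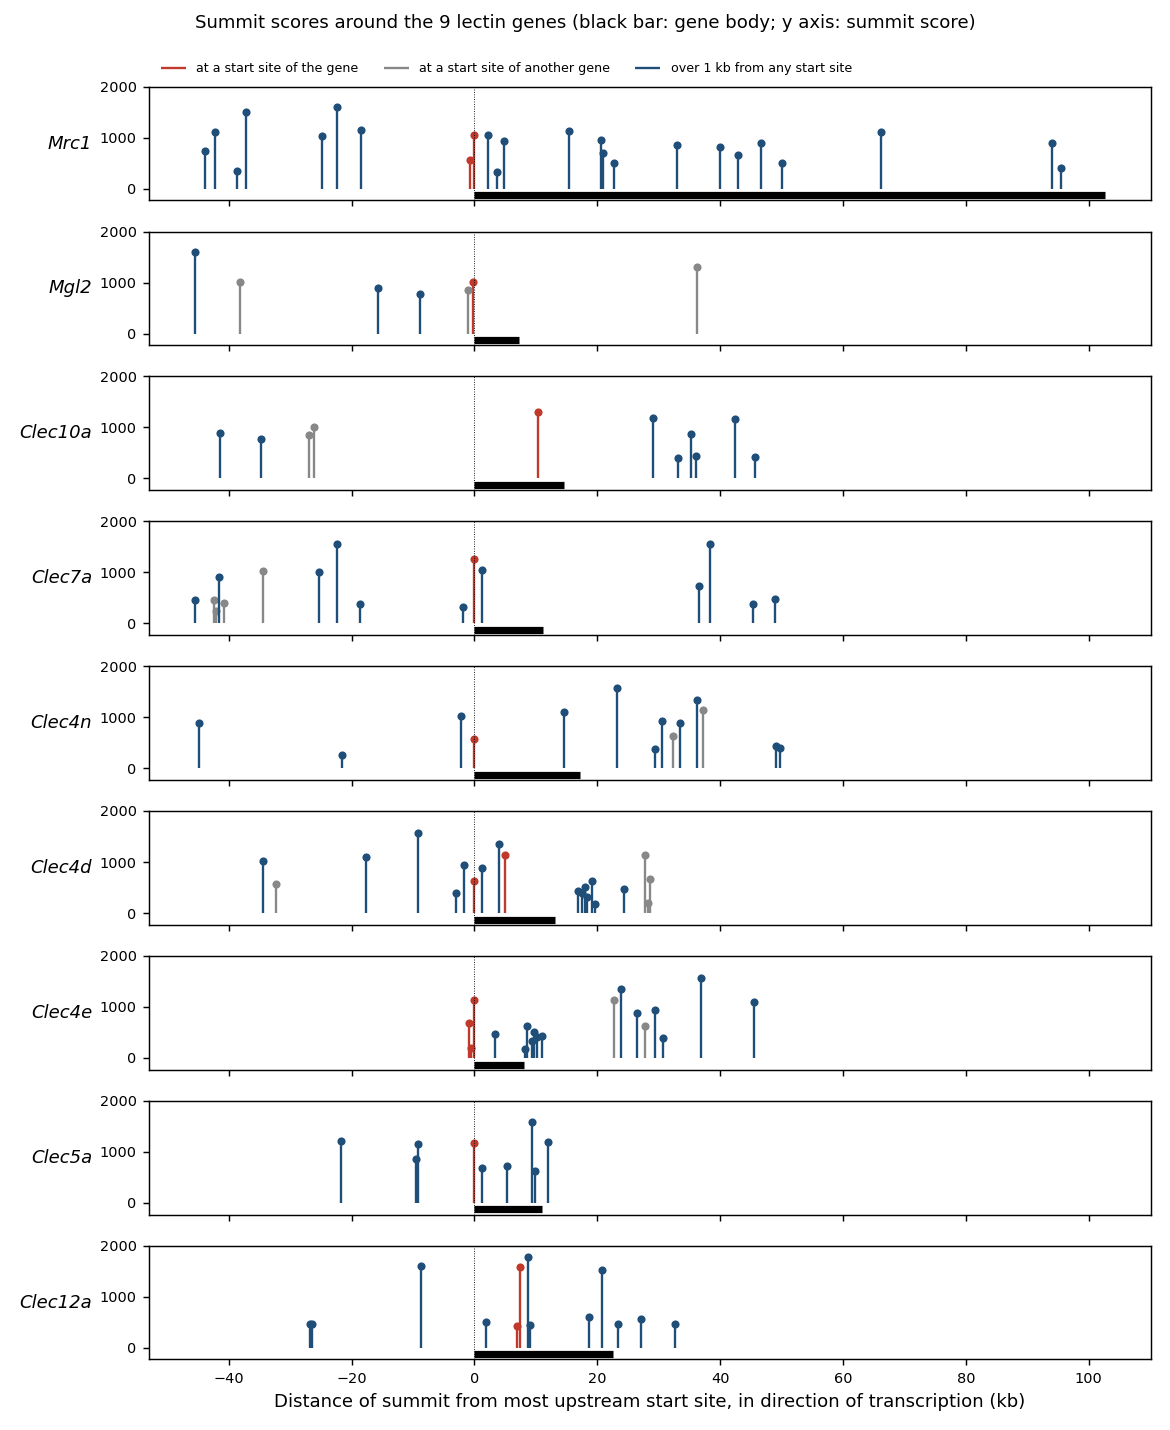
Distance of each reference peak's best summit from the most upstream start site, in kb along the direction of transcription (x axis), and its score (y axis) for the 9 genes. Red stems lie at a start site of the gene, grey stems at a start site of another gene and blue stems elsewhere, and the black bar is the gene body. Stems run along the whole body of Mrc1, and a low cluster stands between Clec4d and Clec4e. Peaks in overlapping windows are drawn more than once.

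Mrc1 (chr2:14229392-14332057, plus strand) had the most peaks, and 16 of the 24 touched its gene body. Its start site peak at chr2:14229090-14229457 scored 1048, and a weaker peak of 563 lay at chr2:14228606-14228845. The highest summit of the window (1594) lay 22382 bp upstream in a peak at chr2:14206824-14207221, within an intron of the neighbouring gene Tmem236, but nearer to the start site of Mrc1. In total, 7 distal summits of the window scored above the start site peak. They were spread from 42296 bp upstream to 66181 bp downstream of the start site, where a peak at chr2:14295469-14295698 scored 1106. The strongest distal summit inside the gene scored 1129, 15444 bp from the start site in an intron, at chr2:14244720-14244915.

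Mgl2 (chr11:70130329-70137550, plus strand) and Clec10a (chr11:70156197-70170834, plus strand) had fewer peaks, and 5 were common to both windows. No reference peak touched the Mgl2 gene body. Its start site peak, at chr11:70129995-70130192, ended 137 bp before the start site and scored 1013, and another peak 1067 bp upstream scored 845. The best distal summit in its window (1594, at chr11:70084628-70084967) lay 45545 bp upstream and 7860 bp from the start site of Asgr2, which encodes a subunit of the liver asialoglycoprotein receptor. In the Clec10a gene body, the start site peak (1296) was the only reference peak. The best distal summit of Clec10a scored 1176 and lay in intergenic sequence at chr11:70185243-70185447, and 5 further peaks followed it downstream, with scores from 402 to 1164.

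The start site peaks of Mgl2 and Clec10a shared the longest run of bases found upstream of any pair of the 9 genes. Among 36 pairs, the 300 bases before the start site at the peak were searched for identical runs on the same strand. The longest run was 14 bases for 2 pairs and at most 12 bases for the other 34. For Mgl2 and Clec10a, the run contains the PU.1/ETS motif and lay inside both start site peaks, beginning 228 bp and 138 bp before the start site. For Clec4n and Clec4d, it began 58 bp and 18 bp before the start site and also lay inside both peaks. In the lines below, capitals mark the shared run, and that of Clec4d is not repeated because its surroundings reach an untranslated exon.
Mgl2, chr11:70130086-70130129, plus strand: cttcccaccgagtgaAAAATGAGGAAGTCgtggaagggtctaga
Clec10a, chr11:70166470-70166513, plus strand: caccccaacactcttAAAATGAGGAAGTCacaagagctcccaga
Clec4n, chr6:123229784-123229827, plus strand: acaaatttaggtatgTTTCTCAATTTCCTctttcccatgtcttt
The PU.1/ETS letters were found within 200 bp of 10.5% of all summits. In Clec10a they lay more than 100 bp from the summit, and this match is therefore not among those counted within 100 bp below.

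Clec7a (chr6:129461591-129472779, minus strand) had its start site peak (1260) at chr6:129472744-129473012. A second peak in its gene body, 1191 bp downstream in an intron, scored 1048. The 2 strongest distal summits of the window both scored 1556, and each lay in an intron of a neighbouring lectin gene. The first was at chr6:129434310-129434562 in Clec1a, and the second at chr6:129494991-129495198 in Olr1, which encodes the receptor LOX-1 for oxidised lipoprotein. Only 3 of the 16 peaks in the window had Clec7a as the nearest coding gene. The remaining peaks were closer to genes such as Clec1a, Clec9a, Olr1 and Tmem52b.

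Clec4n (chr6:123229843-123247021, plus strand), Clec4d (chr6:123262111-123275265, plus strand) and Clec4e (chr6:123281789-123289870, minus strand) lie next to each other, 27759 bp (Clec4d and Clec4e) to 60027 bp (Clec4e and Clec4n) apart by start site, so that their windows overlap. The Clec4d window held 10 separate extended regions, and its 20 reference peaks covered 6309 bp. Through the overlap, the windows of Clec4d and Clec4e shared 18 peaks, those of Clec4d and Clec4n 12, and those of Clec4e and Clec4n 10. The strongest summit of these windows (1568) lay between Clec4n and Clec4d at chr6:123252831-123253157, 9112 bp upstream of Clec4d. The start site peak of Clec4e at chr6:123289861-123290076 scored 1129, and 2 weaker peaks upstream of it scored 196 and 675. Those of Clec4n, at chr6:123229766-123229907, and of Clec4d, at chr6:123262027-123262206, scored 563 and 634. Within Clec4d, an intronic peak at chr6:123265929-123266197 scored 1345, and a peak at chr6:123266978-123267157, near an internal start site, scored 1141. Both exceeded the peak at the start of the gene. In Clec4n, an intronic peak 14579 bp downstream scored 1094.

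Between the 3' ends of Clec4d and Clec4e, which are transcribed towards each other, lay 6 closely spaced reference peaks from chr6:123278750 to 123281780. They carried 7 summits with scores from 182 to 623, all below the median of all summits. The widest, at chr6:123280675-123281450, measured 776 bp, compared with a median width of 227 bp over all reference peaks. They formed the single extended region of the 67 with 5 or more peaks, a property of 1.11% of all extended regions. The only reference peak of the 97 with more than 1 summit, at chr6:123279349-123279891, was also here, whereas 2.47% of all reference peaks had more than 1. Repeats covered more than 50% of the bases within 100 bp of 3 of the 7 summits of this cluster. At the summit with a score of 182, the central 76 bases, the length of a read before trimming, occurred 15 times in the genome. This was the only one of the 98 summits where they were not unique. Trimmed reads could be as short as 38 bases, and the central 38 bases were not unique at 5 of the 98 summits. In the cluster they occurred 8013, 17 and 3 times at the summits scoring 182, 515 and 623. Elsewhere they occurred 31 times at the Mrc1 summit scoring 402 and 3 times at a Clec4n summit scoring 258. The part of reads from repeated sequence in the cluster was not tested.

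Clec5a (chr6:40574894-40585821, minus strand) had 9 peaks. The start site peak at chr6:40585871-40585986 scored 1164 and ended 50 bp from the start site. The best summit of the window (1581) lay at the other end of the gene in an untranslated exon, at chr6:40576366-40576670, 9306 bp downstream of the start site. It had a score close to that of the best distal summits of Mrc1 and the Clec4 genes. Upstream of Clec5a, a peak at chr6:40607483-40607655 scored 1212 and a pair of peaks at about 9 kb scored 1153 and 867.

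Clec12a (chr6:129342691-129365303, plus strand) had the highest distal score of the 9 genes and, by its best start site peak, the highest start site score. The internal start site peak scored 1581, and 1379 bp beyond an annotated internal start site an intronic peak at chr6:129351191-129351505 scored 1786. These peaks and 2 weaker ones (421 and 448) made up a single extended region of 3634 bp. A further peak 8697 bp upstream of the annotated gene, at chr6:129333849-129334169, scored 1606, and an intronic peak at chr6:129363359-129363656 scored 1531. The other 9 peaks of the window scored from 421 to 593. The 4 best summits thus stood apart from the others, without values in between.

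The sequences at the best distal summits are given for Mrc1, Clec7a and Clec12a and for the peak shared by the Clec4 genes. That of Clec5a is left out because it lay in an untranslated exon. They cover 50 bp on both sides of the summit, on the strand of the gene, with motif letters in capitals.
Mrc1, chr2:14206960-14207060, plus strand: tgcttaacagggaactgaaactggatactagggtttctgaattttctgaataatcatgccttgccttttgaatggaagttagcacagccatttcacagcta
Clec7a, chr6:129434360-129434460, minus strand: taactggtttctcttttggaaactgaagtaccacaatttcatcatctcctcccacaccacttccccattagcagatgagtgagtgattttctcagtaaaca
Clec4n and Clec4d, chr6:123252949-123253049, plus strand: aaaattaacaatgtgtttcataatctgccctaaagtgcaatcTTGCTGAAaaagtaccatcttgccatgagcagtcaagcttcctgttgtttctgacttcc
Clec12a, chr6:129351293-129351393, plus strand: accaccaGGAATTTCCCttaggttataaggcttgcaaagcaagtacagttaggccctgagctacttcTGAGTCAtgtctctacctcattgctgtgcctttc
The Clec4 line holds a C/EBP motif. The Clec12a line holds an NF-kB and an AP-1 motif, and it is the strongest summit among all 98.

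The motif search covered both strands and the 100 bp to each side of a summit. The letters were GAGGAAGT for PU.1/ETS, TGANTCA for AP-1, TTGCNNAA for C/EBP, TTCNNNNGAA for STAT6, GAAANNGAAA for IRF, TGTGGTT for RUNX, TCACGTGA for the E-box of MiT factors, TGCTGAC for MAF factors, GTGGGCG for EGR, AGGTCANAGGTCA for DR1 (a site of nuclear receptors) and GGGCGGGG for SP/KLF, together with the NF-kB consensus. A MAF match can overlap an AP-1 match. At the 98 summits of the lectin windows, the most frequent were AP-1 with 28 summits (28.6%, compared with 19.4% of all 84660 summits), STAT6 with 20 (20.4% compared with 6.81%) and C/EBP with 15 (15.3% compared with 11.4%). PU.1/ETS was found at 10 (10.2% compared with 9.08%) and RUNX at 9 (9.18% compared with 7.91%). Within 50 bp of the summit, the order turned for AP-1 (13.3% compared with 13.9%) and RUNX (4.08% compared with 4.72%). NF-kB was found at 3 summits (3.06% compared with 5.55%), 1 in the Clec12a window and 2 in that of Clec5a. Matches to IRF (2 summits, 2.04% compared with 3.64%) and MAF (3 summits, 3.06% compared with 5.66%) were few. No summit held the E-box or DR1 letters, which were at 0.496% and 0.0402% of all summits. No summit held SP/KLF or EGR, which were found at 7.15% and 3.73% of all summits and are rich in G and C. Over the whole list, SP/KLF was at 20.0% of summits within 1000 bp of a start site and at 1.85% of distal ones. For EGR these shares were 8.82% and 1.63%. Summits of the lectin windows had a median GC content of 44.3%, compared with 50.2% over all summits. At 35 of the 98 summits none of the 12 motifs was found. When only distal summits were compared, 78 in the lectin windows, AP-1 was at 29.5% compared with 23.6% of all distal summits. STAT6 was at 17.9% compared with 7.81%, C/EBP at 14.1% compared with 13.1% and RUNX at 10.3% compared with 9.36%. For PU.1/ETS the order turned, with 8.97% compared with 10.7%.

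**Figure D4:**
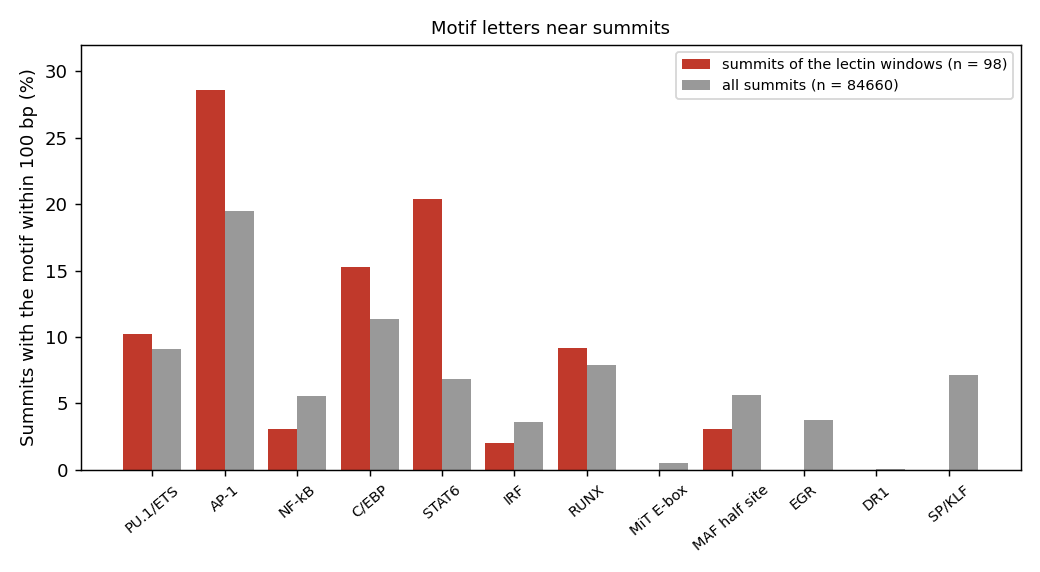
Share of summits (y axis, in percent) with the letters of each of 12 motifs within 100 bp, for the 98 summits of the lectin windows (red) and all 84660 summits (grey). STAT6 shows the widest gap, with 20.4% compared with 6.81%, and SP/KLF and EGR are absent from the lectin windows.

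Of the 20 summits with STAT6 letters, 11 belonged to Mrc1. They were found at 11 of its 24 summits (45.8%), compared with 9 of the 74 summits of the other windows (12.2%) and 6.81% of all summits. Mgl2 had 2 of 7 and Clec10a 3 of 11, but both summits of Mgl2 were shared with Clec10a. Clec7a had 4 of 16, Clec5a 1 of 9 and Clec12a 1 of 13. None was found at the 21 summits of Clec4d, the 19 of Clec4e or the 15 of Clec4n, whose windows overlap. Among 18070 summits of the whole list with a GC content at or below the median of the lectin windows, 9.92% held the letters. STAT6, which is phosphorylated after IL-4 binds its receptor, is known to bind palindromes with 4 bases between TTC and GAA, whereas other STAT proteins prefer 3. With 3 bases between them, the letters were found at 1 of the 24 Mrc1 summits (4.17%) and at 6.35% of all summits, and with 5 bases at 1 of 24 (4.17%) and 5.15%. With 2 and with 6 bases, they were found at 3 of 24 each (12.5%), compared with 5.84% and 5.56% of all summits. In the other 8 windows, the share was 12.2% (9 of 74) with 4 bases and the same with 5 bases, and between 5.41% and 8.11% with the others, so that outside Mrc1 the spacing of 4 did not stand out. These other spacings were looked at after the Mrc1 value had been seen.

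**Figure D5:**
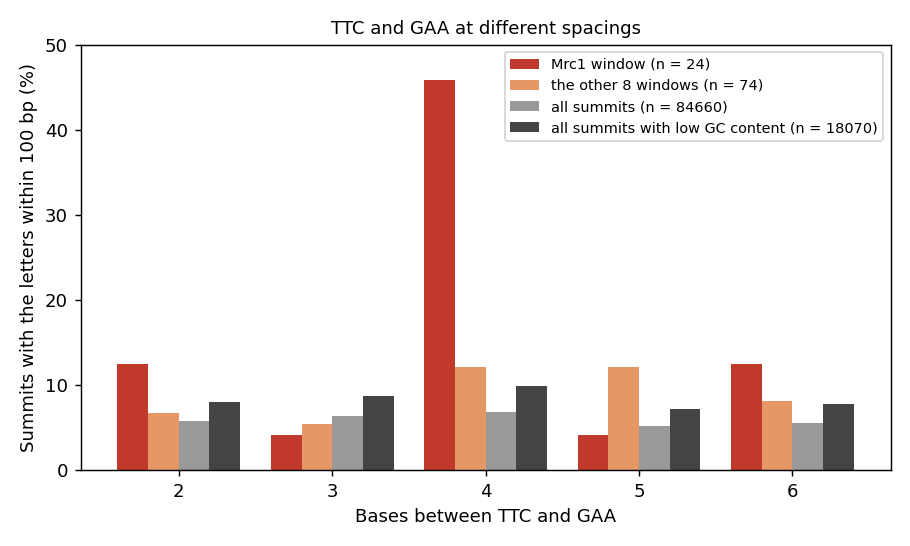
Share of summits (y axis, in percent) with TTC and GAA separated by 2 to 6 bases (x axis) within 100 bp, for the Mrc1 window, the other 8 windows, all summits, and all summits with a GC content at or below the lectin median. The bar for Mrc1 reaches 45.8% at 4 bases and at most 12.5% at the other spacings.

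The 11 Mrc1 summits held 12 such sites. The centre of 7 of them, at 6 summits, lay within 20 bp of the summit, and these are shown with the palindrome in capitals and 15 bases on both sides.
Summit with score 1059, chr2:14231608-14231647: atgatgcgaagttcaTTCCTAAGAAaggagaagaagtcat
Summit with score 505, chr2:14252164-14252203: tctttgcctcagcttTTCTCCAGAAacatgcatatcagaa
Summit with score 856, chr2:14262318-14262357: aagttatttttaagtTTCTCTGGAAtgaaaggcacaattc
Summit with score 664, chr2:14272252-14272291: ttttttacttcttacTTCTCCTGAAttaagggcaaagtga
Summit with score 889, chr2:14275983-14276022: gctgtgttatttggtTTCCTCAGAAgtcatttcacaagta
Summit with score 889, first site, chr2:14323338-14323377: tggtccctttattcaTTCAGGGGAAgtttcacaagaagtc
Summit with score 889, second site, chr2:14323350-14323389: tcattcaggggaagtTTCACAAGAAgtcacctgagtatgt
All of these lie in introns of Mrc1. The last site lay wholly in sequence marked as a repeat, and the same 10 letters occurred at the neighbouring summit with a score of 402, also in repeat sequence. Other sites lay partly in repeats. Of the 10 letters, 8 were so marked at the summit with a score of 1059 and 2 at that with 856. At the summit with a score of 1025, whose site is not shown, 8 were so marked. The 12 sites of the window had 11 different sets of letters. The start site peaks of Clec7a and Clec5a, shown above, each had a STAT6 site near the summit. Since the lists carry no stimulus, it cannot be told whether any of these summits was called in IL-4-treated or in untreated BMDM.

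Start sites of marker genes were examined to set the cells beside their label. All 9 macrophage markers, such as Csf1r, Adgre1 and Itgam, had a start site peak, compared with 56.4% of all genes. The counts were 1 of 4 for T cells, 2 of 4 for B cells, 1 of 3 for NK cells, 1 of 4 for granulocytes, 2 of 4 for dendritic cells, 0 of 3 for erythroid cells, 1 of 3 for mast cells, 2 of 3 for fibroblasts and 0 of 3 for epithelial cells. The shares for B cells, dendritic cells and fibroblasts were thus near or above that of all genes, so that these few markers do not tell the cells apart from those types.

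The signalling partners of the activating lectins had open start sites as well. All 12 genes of this list had a start site peak, compared with 56.4% of all genes, and they had a median of 19.5 reference peaks, compared with 6 over all genes. Fcer1g, which encodes the gamma chain used by Clec4n, Clec4d and Clec4e, had 24 peaks and a start site score of 1670. Tyrobp, which encodes DAP12, the adaptor of Clec5a, had 17 peaks and a start site score of 1418. Syk had 29 peaks and a start site score of 1284, and Card9, which relays Syk signals to NF-kB, had 11 peaks and a start site score of 1760. The median start site score of the list was 1449, compared with 1369 over all genes with a start site peak and 1129 for the lectin genes.

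Of 14 other lectin genes near the members on chromosome 6, 10 had a start site peak, compared with 56.4% of all genes. Clec4b2, Clec1a, Clec9a and Clec12b had none. Clec9a and Clec1a, known from dendritic and endothelial cells, lie between Clec12a and Clec7a, and their windows held 13 and 14 reference peaks nevertheless. The highest start site scores were those of Clec4a2 (1696), Clec4a3 (1657), Clec2d (1644) and Clec4a1 (1581). All 4 equalled or exceeded the best start site score of Clec12a (1581), the highest among the 9 genes.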

How the data were processed

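ATAC-seq reads (single-end, 76 bases) of 18 libraries had been processed by the authors with BBDuk, Trimmomatic 0.39, ShortStack (mapping to mm10), SAMtools 1.9 and MACS2 2.2.6. Duplicate reads were kept, so that PCR copies can raise a peak, and a Tn5 offset is not mentioned, which can displace summits by a few bases. Per the study's methods, a reference peak had to pass a strict q-value limit in a library and to overlap between the replicates of its group. The 3 deposited lists were pooled by the authors over all groups. Reference peaks and extended regions are positions only, and summits carry a deposited score whose scale is not given in the sources used here. No column belonged to other samples. Depth per library is unknown, and a weak site may be missing.

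Positions are counted from 1 on mm10, with sequence from GRCm38.p6, whose chromosome lengths held all entries on 21 of 21 chromosomes. Genes came from GENCODE M21. Python 3.11.15, numpy 2.4.6 and pandas 2.3.3 were used, and the routines were tested on simulated data. No test was run, because no comparison had replicates, and each value stands beside the same value over all genes or summits. Motifs were exact letters within 100 bp of a summit, and a match is no evidence of binding. A start site peak lay within 1000 bp of a start site. Other windows, start sites, gene assignments and score limits were tried. The 9 genes, the other gene lists and the motifs were chosen with earlier results of these data known. The text names the 9 genes with their start site peaks, best distal summits and widest peaks, their neighbours and the genes of the lists. Other peaks were named after their values were seen.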

Additional observations from a re-analysis of the deposited data

How the results depend on the processing

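At the most upstream start site, 7 of the 9 genes had a peak, compared with 51.9% of all genes. All 9 genes kept a start site peak with windows of 500 bp and 2500 bp. When summits below the median score were left out, 8 had one. The share of all genes is not given for these last settings, so these counts cannot be set against it. The number of distinct reference peaks fell from 97 to 63 with a flank of 20 kb and to 52 without summits below the median score, and it was 135 with 100 kb. Extended regions fell from 67 to 40 with 20 kb and to 43 when the nearest coding start site had to be that of a lectin gene, and numbered 92 with 100 kb. The median number of peaks per gene was 14, compared with 8 with 20 kb and 25 with 100 kb. For Clec10a, the 20 kb window held 1 of 11 peaks. The order of the genes changed as well. With 20 kb, Clec7a had 4 peaks, Mgl2 4 and Clec4n 3, whereas Clec5a had 8 and Mrc1 still had the most (18). With 100 kb, Mrc1 had 28, Clec12a 27 and Mgl2 19, and Clec5a had the fewest (12). The median best score was 1568, or 1260 with only summits nearest to the gene. With the best scored peak at any start site, chosen after seeing the data, the start site score of Clec4d was 1141 in place of 634, and those of Mrc1, Mgl2, Clec7a, Clec4n, Clec4e and Clec5a were the same. For Clec10a and Clec12a, this peak was already the one reported. The start site peak of Clec12a nearest to its most upstream start site scored 421 in place of 1581. The STAT6 share was 12.2% within 50 bp, 25.5% within 200 bp and 20.9% for the best summit of each extended region, compared with 3.75%, 11.8% and 6.91% of all summits. The AP-1 share within 50 bp (13.3%) was below that of all summits (13.9%), and that within 200 bp (33.7%) was above it (23.5%). No paired analysis was possible because the lists hold no column per library, and for the same reason no library could be left out.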

Other observations

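Of 12 C-type lectin genes best known from other cell types, 4 had a start site peak (Cd207, Clec4g, Asgr1 and Asgr2), compared with 56.4% of all genes. Their scores were 554 for Cd207, which encodes langerin of Langerhans cells, 534 for Clec4g, 324 for Asgr1 and 1002 for Asgr2. The genes without one included Cd209a, the selectins Sele and Selp, Colec11 and Clec4f, which marks Kupffer cells. Reg3g and Sftpd had no reference peak in their windows. All 4 genes of the mannose receptor family had a start site peak, with scores of 1048 for Mrc1, 1082 for Ly75, 448 for Pla2r1 and 411 for Mrc2. Their windows held 24, 6, 9 and 4 reference peaks in that order, so that Mrc1 had the most. These counts were not tested.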
